A study of Homo sapiens with 4 samples.

Results

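Transcripts of 10 enzymes of glucose breakdown were followed in MM.1S cells, an established human multiple myeloma line, after inhibition of the chaperone HSP70. The enzymes were chosen by symbol, as members of the pathway, with earlier results of these data known. They were HK2, GPI, PFKL, ALDOA, TPI1, GAPDH, PGK1, ENO1, PKM and LDHA. Of these, 9 were found among the 16057 genes of the deposited table, and ALDOA was not analysed here. The treated group received JG342, an allosteric HSP70 inhibitor, at 350 nM for 26 h, and the control group received the solvent DMSO for the same time. Each group had 2 libraries from total RNA, numbered 1 and 2, which the series text calls biological duplicates. All 4 libraries came from cultures in serum-containing RPMI-1640 medium with added glutamine. A single cell line at 1 dose and 1 time limits what the groups can stand for.

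Glycolysis turns glucose into pyruvate in the cytosol. The preparatory steps spend ATP to phosphorylate and split the sugar, and the later steps recover ATP and NADH. Lactate dehydrogenase then converts pyruvate to lactate and returns NAD+, which lets the pathway continue. Proliferating tumour cells, myeloma cells among them, often run this route at a high rate even when oxygen is present. Many genes of the pathway are textbook targets of the transcription factors HIF-1, which binds the core letters ACGTG or GCGTG, and MYC, which binds the E-box CACGTG.

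Values were taken as TPM, reads scaled for transcript length and to a fixed library total, so levels can be compared between genes. The 4 libraries summed to between 994463 and 994718 TPM. Their medians over the genes tested lay between 20.4 and 22.1 TPM, and TPM keeps no record of sequencing depth. All 8 listed plasma cell and myeloma markers were present, with summed levels of 4928 and 4187 TPM in DMSO and 4936 and 4598 TPM in JG342, and 3 of the 8 passed the test used below (IRF4 and PRDM1 higher, TNFRSF17 lower). The 2 B cell markers in the table summed to at most 0.26 TPM and the 2 T cell markers to at most 7.84 TPM in any library. The monocyte gene LYZ lay between 36.96 and 46.2 TPM, while CD14, the defining monocyte marker, was at most 0.99 TPM. A lower TPM can stand for less of a transcript in each cell or for a rise of other transcripts in the library total, and in bulk samples fewer cells of a kind and less RNA per cell cannot be told apart.

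Stretches of sequence before the start sites of LDHA, HK2, GAPDH and PGK1 are shown because they hold the letters of these factors at the enzyme gene with the largest fall, the one with the smallest change and a pair in between. They come from RefSeq on GRCh38.p14, all on the plus strand, with matches to these motifs on either strand in capitals.
LDHA, chr11:18394328-18394387: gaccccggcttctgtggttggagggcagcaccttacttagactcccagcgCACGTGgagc
LDHA, chr11:18394463-18394492: ccagcccgactcaCACGTGggttcccgcac
HK2, chr2:74834960-74835109: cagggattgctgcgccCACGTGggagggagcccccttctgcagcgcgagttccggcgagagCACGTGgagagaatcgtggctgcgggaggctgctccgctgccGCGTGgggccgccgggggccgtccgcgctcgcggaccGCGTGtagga
GAPDH, chr12:6535154-6535213: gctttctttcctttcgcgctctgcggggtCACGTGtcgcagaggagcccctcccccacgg
PGK1, chrX:78104023-78104082: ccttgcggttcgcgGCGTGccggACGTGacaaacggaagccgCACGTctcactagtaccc
LDHA and HK2 each hold 2 E-boxes in these stretches, and GAPDH holds 1. HK2 and PGK1 hold GCGTG besides, and PGK1 holds ACGTG once on each strand. The second LDHA stretch overlaps 1 annotated LDHA exon. The GAPDH stretch belongs to a start site inside the gene, downstream of its first RefSeq base. The HK2 stretch belongs to the later of the start sites that RefSeq lists for HK2. In the other RefSeq window of HK2, and in that of LDHA, CACGTG was not found.

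Over the 12 promoter windows that RefSeq lists for the 9 genes, each of 300 bases, CACGTG occurred at HK2, GAPDH and LDHA. That was 3 of the 12 windows, while 7.26% of all 35116 windows and 9.54% of the 13869 windows of genes tested here held it. CACGTG contains ACGTG on both strands, so the counts overlap. ACGTG was found in 7 of the 12 windows, at 6 genes (21.4% of all windows and 25.3% of those of tested genes), and GCGTG in 9, at 7 genes (36.5% and 48.4%). The GC box GGGCGG, bound by SP1, was found in 10 windows, at 8 genes (45.0% and 65.3%). The letters TTGCATCA, a site of the stress factor ATF4, were found in none of the 12 (0.866% and 0.498%). These matches are letters in a window and do not show binding.

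The enzymes differed widely in abundance in the DMSO libraries, and GAPDH alone exceeded the sum of the others. GAPDH, which makes the first NADH of the pathway, averaged 8605 ± 43.8 TPM (SD, n = 2) and was the 6th highest gene of the table. LDHA came next at 1617 ± 57.7 TPM. TPI1 and ENO1 followed at 1294 ± 133 and 1289 ± 155 TPM, a difference smaller than their spread. PGK1 and PKM lay close together at 575 ± 41.0 and 551 ± 31.9 TPM. GPI averaged 326 ± 12.3 TPM and PFKL 156 ± 5.26 TPM. HK2, which phosphorylates glucose on entry, was lowest at 24.3 ± 0.622 TPM, so the highest and the lowest enzyme differed 354-fold.

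**Figure D1:**
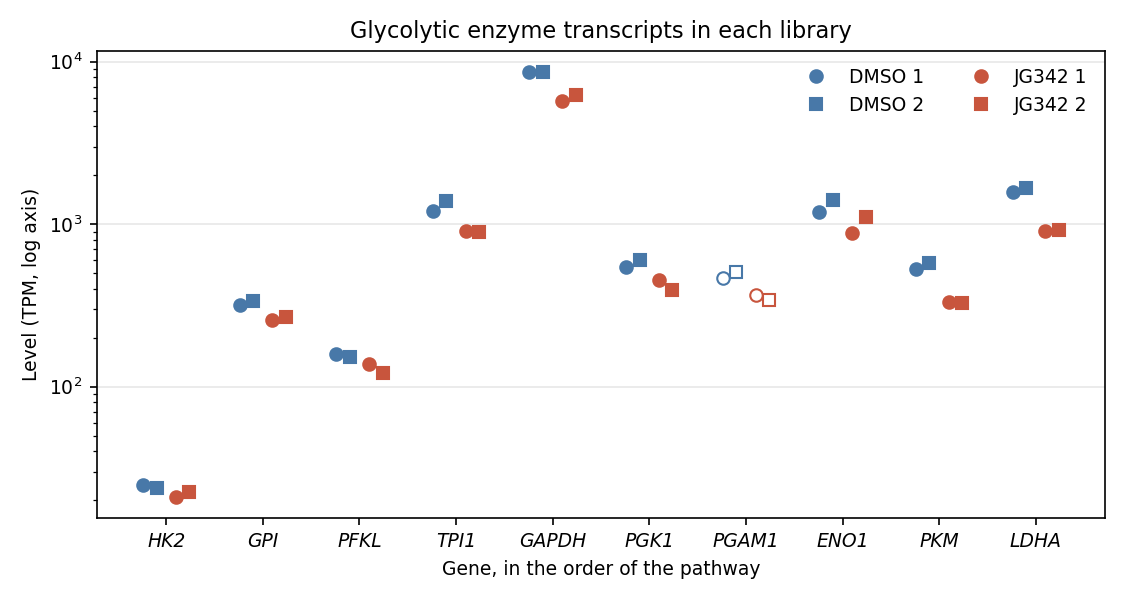
Level of each enzyme transcript (vertical axis, TPM on a log scale) in the 2 DMSO libraries (blue) and the 2 JG342 libraries (red), circles for replicate 1 and squares for replicate 2, with genes in pathway order and PGAM1, which was not among the 10 chosen enzymes, in open symbols. For each of the 9 enzymes both red points lie below both blue points, and the gap is widest for LDHA, from 1617 to 912 TPM.

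Transcripts of 6 of the 9 enzymes fell after JG342 (GPI, TPI1, GAPDH, PGK1, PKM and LDHA), and none rose. Over all 12042 genes tested with limma, 7.62% passed as lower and 10.8% as higher at an adjusted p under 0.05. In either direction 18.4% passed. Among the 1585 abundant genes, those averaging 100 TPM or more as 8 of the enzymes did, 18.4% also passed as lower; this group was chosen after the values were seen. Both JG342 libraries lay below both DMSO libraries for all 9 enzymes, as for 28.2% of all genes tested, while 34.0% had both JG342 libraries above both DMSO libraries. The median log2 fold change of the 9 was −0.44, against 0.03 over all genes. Together their transcripts made up 1.42% and 1.48% of the library total with DMSO and 0.967% and 1.03% with JG342, and the summed level was 31.1% lower.

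LDHA and PKM, the last enzymes of the route, fell the most. LDHA (NM_001135239), the subunit of lactate dehydrogenase that favours lactate formation, stood at 1576 and 1658 TPM with DMSO and at 904 and 919.7 TPM with JG342. The treated libraries were nearly equal and far below the controls. The log2 fold change was −0.83 ± 0.09 (SE), a fall of 43.6% in the mean level (limma adjusted p 0.000751). PKM (NM_001206796), pyruvate kinase of most tissues, stood at 528 and 573 TPM with DMSO and 331 and 325.5 TPM with JG342. Here too the groups were widely separated, with a log2 fold change of −0.74 ± 0.09 (limma adjusted p 0.00140). The table gives 1 value for PKM, so its splice forms M1 and M2 cannot be told apart. LDHA and PKM passed under all 15 alternative settings, with values from −0.89 to −0.79 for LDHA and from −0.81 to −0.68 for PKM.

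In the middle of the route, GAPDH and PGK1 fell by similar amounts. GAPDH (NM_001256799) stood at 8636 and 8574 TPM with DMSO and 5721 and 6217 TPM with JG342. The DMSO libraries were almost equal, and both JG342 libraries were well below them. The log2 fold change was −0.53 ± 0.10 (limma adjusted p 0.00939). PGK1 (NM_000291), the first ATP-yielding enzyme, had 546 and 604 TPM with DMSO and 452 and 394 TPM with JG342. Libraries of 1 group differed more for PGK1 than for GAPDH, and its log2 fold change of −0.44 ± 0.10 was −0.27 between the libraries numbered 1 and −0.62 between those numbered 2 (limma adjusted p 0.0196).

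ENO1 (NM_001201483), which makes phosphoenolpyruvate, did not pass. It stood at 1179 and 1399 TPM with DMSO and 885 and 1113 TPM with JG342. JG342 replicate 2 came close to DMSO replicate 1, and in both groups the library numbered 2 was the higher. The log2 fold change was −0.37 ± 0.13 (limma adjusted p 0.0800). It passed when the replicate number was added as a block (limma adjusted p 5.78e-06, and 0.0104 with the block and median scaling together), and it also passed without JG342 replicate 2 (−0.54, limma adjusted p 0.0197).

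Of the preparatory enzymes, TPI1 and GPI fell, and PFKL and HK2 did not pass. TPI1 (NM_000365), which interconverts the triose phosphates, stood at 1200 and 1388 TPM with DMSO and 911 and 896 TPM with JG342. The JG342 libraries agreed closely and the DMSO libraries less so. Its log2 fold change was −0.51 ± 0.10 (limma adjusted p 0.00982). GPI (NM_000175), which turns glucose 6-phosphate into fructose 6-phosphate, had 318 and 335 TPM against 257 and 268 TPM, a log2 fold change of −0.31 ± 0.09 (limma adjusted p 0.0424). PFKL (NM_001002021), the liver-type subunit of phosphofructokinase, which commits sugar to the pathway, had 159.7 and 152 TPM against 138 and 121 TPM. These groups were separate but close, with −0.27 ± 0.10 (limma adjusted p 0.104; 0.0108 with the replicate block). HK2 (NM_000189), the inducible hexokinase, had 24.8 and 23.9 TPM against 21.1 and 22.5 TPM, a log2 fold change of −0.15 ± 0.12 (limma adjusted p 0.400).

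**Figure D2:**
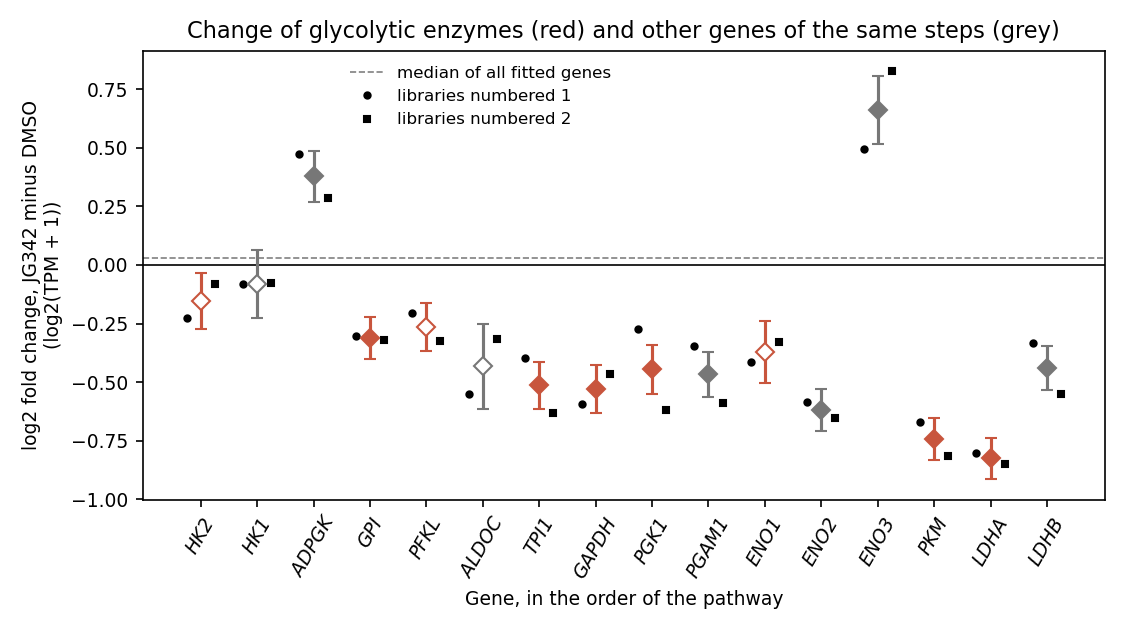
Change after JG342 (vertical axis, log2 fold change of TPM + 1) for the 9 enzymes (red), in pathway order. Some other genes of the same steps are in grey, and GAPDHS, BPGM, PGAM2 and PKLR are among those not drawn. Diamonds with bars give the estimate and its standard error, filled where the limma adjusted p is under 0.05, and small black points give the libraries numbered 1 and 2 separately. The red diamonds run from −0.15 for HK2 to −0.83 for LDHA, and the dashed line is the median of all genes at 0.03.

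The number of enzymes called depended on single libraries, while the direction did not. All 9 had negative values under all 15 alternative settings. Lower calls numbered 3 without DMSO replicate 1 (LDHA, PKM and TPI1), 2 without DMSO replicate 2 (LDHA and PKM), 5 without JG342 replicate 1 (GPI lost) and 5 without JG342 replicate 2 (GPI and PGK1 lost, ENO1 gained). GAPDH then had limma adjusted p of 0.0957 and 0.105 without DMSO replicates 1 and 2. When low genes were kept in the fit, 2 of the 9 were called, LDHA and PKM. With no variance trend and with quantile normalization 4 were called, as GPI (limma adjusted p 0.122 and 0.0675) and PGK1 (0.0735 and 0.0515) did not pass. With the replicate block 8 of the 9 passed as lower and none as higher, where 15.7% of all genes passed as lower and 19.2% as higher.

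Ratios between the enzymes are given as a description, for pairs picked with their changes known. LDHA over HK2, as a ratio of TPM, was 63.6 and 69.4 with DMSO and 42.96 and 40.8 with JG342. HK2 over GAPDH went the other way, from 0.00287 and 0.00279 to 0.00368 and 0.00363. LDHA over GAPDH was 0.183 and 0.193 with DMSO and 0.158 and 0.148 with JG342. In these ratios the groups did not overlap, and with 2 libraries a group the exact two-sided permutation p is 0.33, the smallest the design allows.

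The step between PGK1 and ENO1 is carried by phosphoglycerate mutase, and PGAM1 fell. PGAM1 stood at 469 and 510.8 TPM with DMSO and 369 and 339.5 TPM with JG342, with no overlap. Its log2 fold change was −0.47 ± 0.10 (limma adjusted p 0.0115), and without DMSO replicate 2 it did not pass (−0.40, limma adjusted p 0.106). BPGM, which makes the 2,3-bisphosphoglycerate side product, went from 15.2 and 14.2 to 10.4 and 9.63 TPM, by −0.51 ± 0.14 (limma adjusted p 0.0327; between 0.0522 and 0.171 when any 1 library was left out). PGAM2, the muscle form, had overlapping groups at 7.48 and 4.04 against 7.18 and 10.4 TPM (0.56, limma adjusted p 0.164; 0.00343 with the replicate block). Of the 4 genes listed for this step 3 were tested, and 2 passed as lower and none as higher, beside 7.62% and 10.8% of all genes.

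Other isozymes of the same steps did not all move with the chosen enzymes. Of 17 listed, 14 were in the table and 9 were tested. Of these 4 did not pass, 2 passed as lower and 3 as higher, beside 7.62% and 10.8% of all genes. The median log2 fold change was −0.27. With the replicate block 4 passed as lower, ALDOC among them, beside 15.7% of all genes. Enolase showed both directions. ENO2, the neuronal form, went from 234 and 233 to 156 and 148 TPM (−0.62 ± 0.09, limma adjusted p 0.00304). ENO3, the muscle form, rose from 12.7 and 10.3 to 18.2 and 18.95 TPM (0.66 ± 0.14, limma adjusted p 0.0152; 0.118 without DMSO replicate 2). ENO3 was under 2% of enolase transcripts in each library, at 0.887% and 0.624% with DMSO and 1.72% and 1.48% with JG342.

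Lactate dehydrogenase is a tetramer of A and B subunits, and both transcripts fell, LDHA by more. LDHB, the form that favours pyruvate, stood at 1043 and 1116 TPM with DMSO and 828 and 762 TPM with JG342 (−0.44 ± 0.09, limma adjusted p 0.0135). LDHB did not pass without DMSO replicate 1 (0.0588) or DMSO replicate 2 (0.124). LDHA made up 60.2% and 59.8% of LDHA plus LDHB with DMSO and 52.2% and 54.7% with JG342. The share was thus lower in both treated libraries, by 6.53 percentage points on average (exact two-sided permutation p 0.33 for the ratio LDHA over LDHB, the smallest possible). Leaving out 1 library at a time gave falls between 5.29 and 7.78 points.

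Of the remaining isozymes, ADPGK and GAPDHS rose. HK1, the constitutive hexokinase, had overlapping groups at 9.11 and 9.78 against 8.55 and 9.21 TPM (−0.08, limma adjusted p 0.738). HK2 held 72.8% and 70.8% of hexokinase transcripts with DMSO and 70.9% and 70.6% with JG342, so the mix did not differ beyond the spread. PFKL was the only phosphofructokinase transcript above 1 TPM among those analysed, with PFKP at most 0.20 TPM. PFKM was not analysed here, so its level is not known. ALDOC, the brain form of aldolase, had 31.2 and 21.5 TPM against 20.99 and 17.1 TPM (−0.43, limma adjusted p 0.133; 0.00332 with the replicate block). PKLR, the liver and red cell pyruvate kinase, was at most 1.77 TPM with overlapping groups (−0.27, limma adjusted p 0.497). ADPGK, a glucokinase that uses ADP and is not counted in the hexokinase shares above, rose from 128 and 122 to 178 and 149 TPM (0.38 ± 0.11, limma adjusted p 0.0445). It did not pass after median scaling (limma adjusted p 0.0809), nor without DMSO replicate 1, DMSO replicate 2 or JG342 replicate 1. GAPDHS, the sperm form of GAPDH, rose from 2.32 and 1.76 to 4.95 and 3.99 TPM (0.85 ± 0.20, limma adjusted p 0.0192; 0.120 without DMSO replicate 2 and 0.0792 without JG342 replicate 1).

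**Figure D3:**
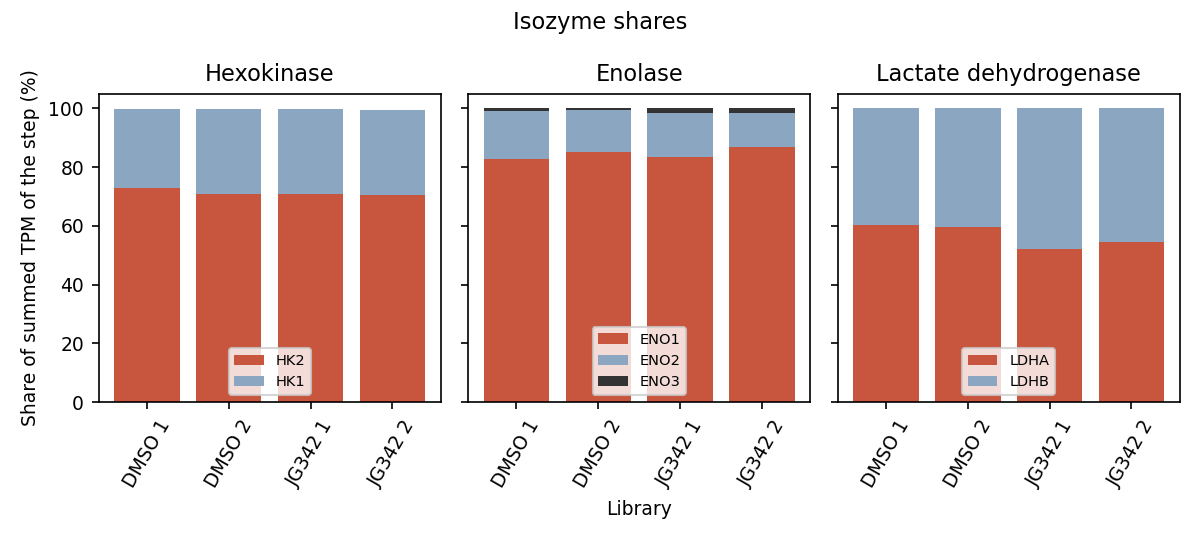
Share of each isozyme in the summed TPM of its enzyme step (vertical axis, %) in each of the 4 libraries, for hexokinase, enolase and lactate dehydrogenase. The LDHA part of the right panel is lower in both JG342 libraries (52.2% and 54.7%) than in both DMSO libraries (60.2% and 59.8%), while the HK2 part stays between 70.6% and 72.8%.

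For glucose and lactate transport 15 genes were listed and 13 tested, among them other carriers of the SLC2A family and the carrier partners BSG and EMB. Of these 1 rose and none passed as lower, counts close to the all-gene shares of 10.8% and 7.62%, and the median was 0.12. With the replicate block 2 were higher and 2 lower, beside 19.2% and 15.7% of all genes. SLC2A1 (GLUT1), the main glucose carrier of many tumour cells, had 24.2 and 24.6 TPM with DMSO and 20.6 and 21.6 TPM with JG342 (−0.20, limma adjusted p 0.270). SLC2A3 (GLUT3) overlapped between groups, at 8.97 and 10.4 against 9.34 and 8.43 TPM (limma adjusted p 0.649). The lactate carrier SLC16A1 (MCT1) had 55.2 and 62.7 against 51.9 and 45.1 TPM (−0.28, limma adjusted p 0.140; 0.0267 with the block). SLC16A3 (MCT4) had overlapping groups, at 25.1 and 21.9 against 25.02 and 22.4 TPM. The gene that rose was SLC2A10 (GLUT10), from 0.70 and 1.07 to 4.52 and 4.72 TPM, by 1.58 ± 0.20 (limma adjusted p 0.00160). It averaged 0.885 TPM with DMSO and 4.62 TPM with JG342. It thus met the filter, a mean of 1 TPM over the 4 libraries, only through the group where it is high.

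Among 12 genes that set the flux, 8 were tested and PFKFB3 alone passed, as lower (3 lower with the block). Of all genes tested 7.62% passed as lower, and 15.7% with the block. PFKFB3 makes fructose 2,6-bisphosphate, the activator of phosphofructokinase, and went from 6.26 and 7.36 to 4.33 and 4.23 TPM (−0.56 ± 0.16, limma adjusted p 0.0455; between 0.0909 and 0.257 when any 1 library was left out). Its relative PFKFB4 had 3.80 and 3.17 against 2.51 and 1.29 TPM (−0.66, limma adjusted p 0.0883; 0.00457 with the block). TXNIP, a glucose-induced inhibitor of glucose uptake, followed the replicate number more than the treatment: 201 and 164 TPM in the libraries numbered 1 of DMSO and JG342, and 82.99 and 71.9 TPM in those numbered 2. Its log2 fold change was −0.25 (limma adjusted p 0.722; 0.0226 with the block), and it was 0.39 without DMSO replicate 1.

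Of the transcription regulators of these genes, MYC and KLF10 fell and HIF1A did not pass. MYC stood at 285 and 291 TPM with DMSO and 181 and 182 TPM with JG342, 2 tight and separate groups (−0.66 ± 0.09, limma adjusted p 0.00206). HIF1A overlapped between groups at 24.7 and 27.7 against 28.3 and 25.8 TPM (0.05, limma adjusted p 0.832), and its sign turned under median scaling (−0.020) and quantile normalization (−0.010). KLF10 went from 18.6 and 18.2 to 12.2 and 8.67 TPM (−0.78 ± 0.17, limma adjusted p 0.0138; 0.0720 and 0.0777 without DMSO replicates 1 and 2). The remaining 13 of the 16 tested genes did not pass, and VHL, which marks HIF proteins for degradation, had 49.97 and 57.7 against 67.5 and 69.9 TPM (0.35, limma adjusted p 0.0588; 0.00311 with the block). The median of the 16 was 0.10, and 2 passed as lower and none as higher, beside 7.62% and 10.8% of all genes.

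Of the known HIF targets outside glycolysis, 4 fell. Of 24 listed genes 18 were tested: 4 passed as lower and none as higher, beside 7.62% and 10.8% of all genes. The remaining 14 did not pass, and the median was −0.01. With the replicate block 5 were lower, with AK4 (limma adjusted p 0.000511) in addition, and 1 was higher, KDM4B (limma adjusted p 0.0369). In that fit 15.7% of all genes were lower and 19.2% higher. ADM, the vasodilator peptide adrenomedullin, fell from 187 and 192 to 96.1 and 93.9 TPM (−0.99 ± 0.09, limma adjusted p 0.000329). ANKRD37 fell from 37.95 and 31.1 to 20 and 17.99 TPM (−0.83 ± 0.14, limma adjusted p 0.00517). PLOD1, a collagen lysyl hydroxylase, had −0.69 (limma adjusted p 0.0146; 0.104 without DMSO replicate 1), and the mitochondrial protein gene FAM162A had −0.40 (limma adjusted p 0.0252; between 0.0670 and 0.176 when any 1 library was left out). NDRG1, KDM3A, BNIP3 and P4HA1, often used as hypoxia markers and picked after their values were seen, had overlapping groups. BNIP3 was low, at most 1.60 TPM. Among the other genes that did not pass, BNIP3L, KDM4B and RORA had both JG342 libraries above both DMSO libraries, and AK4 had both below. VEGFA and CA9 were listed but not analysed here.

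Several routes leave the trunk of glycolysis, and serine synthesis leaves at 3-phosphoglycerate, the product of PGK1. All 3 serine synthesis genes rose: PSAT1 from 87.6 and 161 to 511 and 502 TPM (2.08 ± 0.22, limma adjusted p 0.000755), PHGDH from 24.6 and 48.4 to 112 and 137 TPM (1.81 ± 0.25, limma adjusted p 0.00264) and PSPH from 22.1 and 34.1 to 68.0 and 75.95 TPM (1.36 ± 0.18, limma adjusted p 0.00214). PHGDH did not pass without a filter on low values (0.0550) or with robust variance estimates (0.0549). PSAT1 over PGAM1, genes on either side of this branch point, was 0.187 and 0.315 as a ratio of TPM with DMSO and 1.38 and 1.48 with JG342. PCK2, the mitochondrial enzyme that makes phosphoenolpyruvate from oxaloacetate, rose from 3.19 and 4.70 to 36.7 and 44.98 TPM (3.09 ± 0.18, limma adjusted p 4.13e-05). It was the 1 gene that passed of 7 tested for gluconeogenesis and the glycerol branch (3 with the block, all higher). Of these 3, LDHD averaged 0.585 TPM with DMSO and 1.675 TPM with JG342, so it met the filter only through the group where it is high. Of all genes tested 10.8% passed as higher, and 19.2% with the block.

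The hexosamine and mannose branch, which leaves at fructose 6-phosphate and feeds protein glycosylation, held 6 genes that rose. Of 12 listed genes 11 were tested, 6 passed (8 with the block) and none was lower, beside 10.8% of all genes higher (19.2% with the block). The median was 0.40 against 0.03 over all genes. The count of higher genes was 3 after median scaling, with no variance trend, with no filter on low values and without DMSO replicate 1. GFPT1, the entry enzyme of hexosamine synthesis, rose from 32.4 and 37.7 to 60.6 and 63.3 TPM (0.81 ± 0.12, limma adjusted p 0.00275). OGT, which attaches single N-acetylglucosamine residues to proteins, rose from 152 and 130.4 to 239 and 233 TPM (0.74 ± 0.10, limma adjusted p 0.00252). PMM1, a phosphomannomutase, rose by 0.72 ± 0.12 (limma adjusted p 0.00483). UAP1, which makes UDP-N-acetylglucosamine, rose by 0.37 ± 0.09 (limma adjusted p 0.0287), which did not pass after median scaling (0.0561) or when any 1 library was left out (0.0791 to 0.150).

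The pentose phosphate pathway leaves at glucose 6-phosphate and makes NADPH and ribose. Of its 9 listed genes 8 were tested, and 2 passed as higher and 1 as lower, beside 10.8% and 7.62% of all genes. The median was −0.17. With the block 4 passed as lower, beside 15.7% of all genes. TKT, transketolase, fell from 365 and 369.8 to 263 and 255 TPM (−0.50 ± 0.09, limma adjusted p 0.00623; 0.0552 without DMSO replicate 2). PGLS, the lactonase, rose from 27.6 and 24.3 to 40.2 and 50.5 TPM (0.78 ± 0.14, limma adjusted p 0.00717; 0.0561 without DMSO replicate 2). H6PD, an enzyme of this route in the endoplasmic reticulum, rose by 0.75 ± 0.17 (limma adjusted p 0.0162; 0.121 without DMSO replicate 2).

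Genes of glycogen metabolism did not pass under limma, with 0 of 13 tested, beside 18.4% of all genes in either direction. Their median was 0.05, while 1 higher and 1 lower passed with the block, beside 19.2% and 15.7% of all genes. Of the 7 genes that shuttle electrons of cytosolic NADH into mitochondria, 1 passed, as higher, beside 10.8% of all genes. Their median was −0.00477 (1 higher and 1 lower with the block, beside 19.2% and 15.7% of all genes). The gene that passed was GOT1, the cytosolic aspartate aminotransferase, which rose from 76.5 and 76.1 to 174 and 169 TPM (1.16 ± 0.09, limma adjusted p 0.000171).

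**Figure D4:**
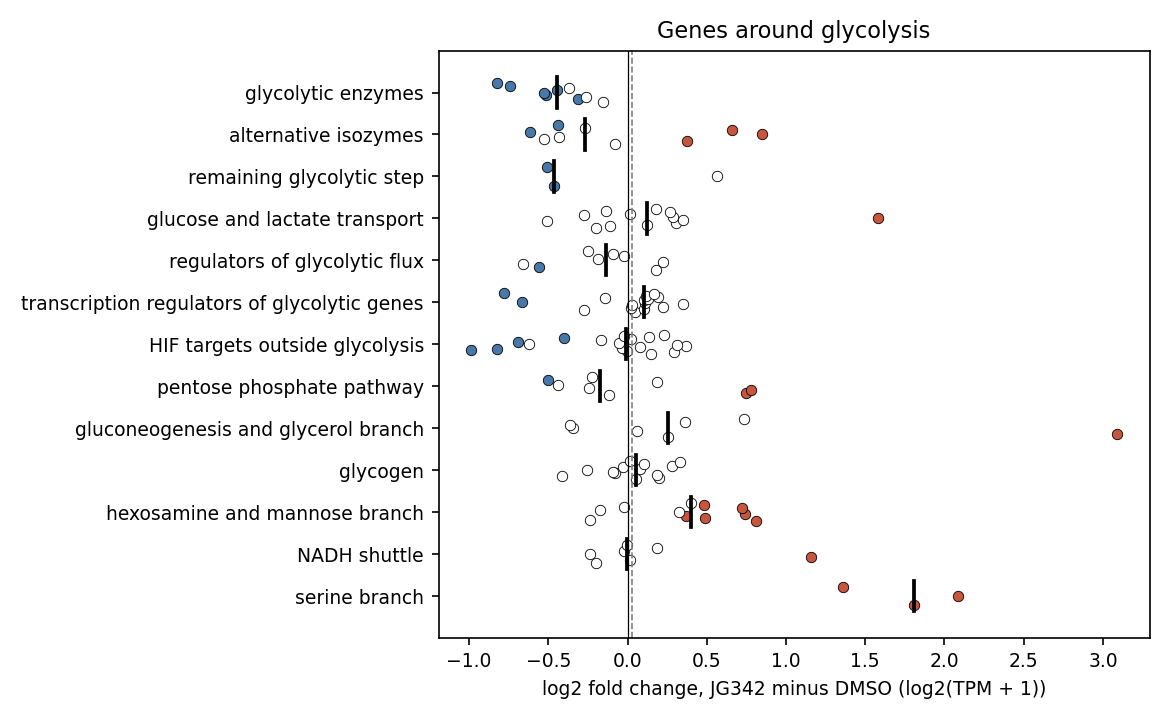
Change after JG342 (horizontal axis, log2 fold change of TPM + 1) of each tested gene in the glycolytic enzymes and 12 lists around them. Filled points passed the limma test (blue lower, red higher), open points did not, black bars are list medians and the dashed line is the median of all genes. The enzymes have their median at −0.44 and the serine branch at 1.81.

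**Figure D5:**
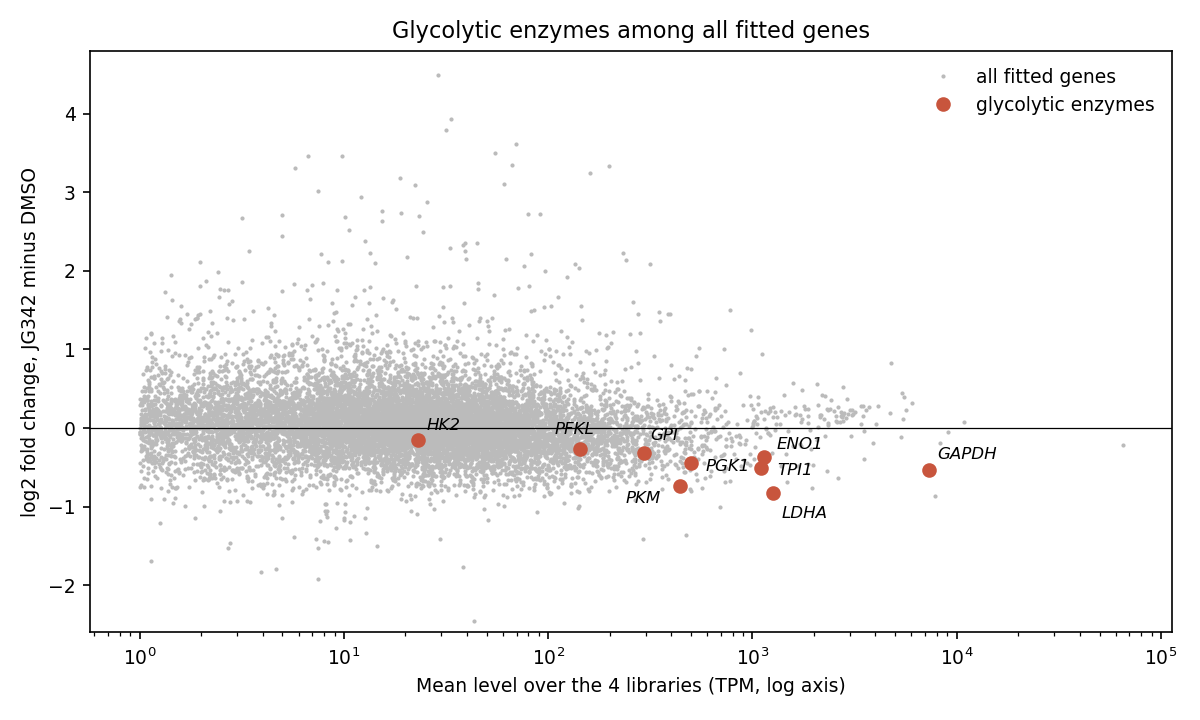
Change after JG342 (vertical axis, log2 fold change of TPM + 1) against the mean level over 4 libraries (horizontal axis, TPM on a log scale) for the 12042 genes tested (grey) and the 9 enzymes (red). All 9 red points lie below 0, and 8 of them lie above 100 TPM.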

How the data were processed

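The authors deposited 1 table with a value per gene and library. No header names the unit, and the design allowed for counts; the deposited values were taken as TPM because each library sums to between 994463 and 994718. The submitters' processing notes name HISAT2 2.0.4, Bowtie2 2.2.5 and RSEM 1.2.12; the genome build and annotation are not given in the sources used here. Values were transformed to log2(TPM + 1), which understates changes of low genes, and 12042 genes averaging 1 TPM or more were fitted in limma 3.58.1 (R 4.3.3; lmFit, eBayes with trend; treatment as the only term). P-values are two-sided and Benjamini-Hochberg adjusted over all of these, with a threshold of 0.05. The script was tested on simulated data.

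The alternative with the replicate number as a block rests on the labels, where same-numbered libraries share a description prefix; their deviations from group means correlated at 0.27 across genes. That fit had an infinite prior, so each variance came from the expression trend alone.

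The enzymes and lists were chosen with earlier results of these data known. Named genes are the 9 enzymes, their tested isozymes (1 of which is not reported here), PGAM1, 9 regulators and carriers (HIF1A, MYC, SLC2A1, SLC2A3, SLC16A1, SLC16A3, PFKFB3, PFKFB4, TXNIP), and up to 4 genes with the smallest p among those that passed in each list; others named, such as VHL, AK4, KDM4B, NDRG1, KDM3A, BNIP3, P4HA1, PGAM2 and the reference genes, were chosen after their values were seen. Near-identical copies were searched in GENCODE 29 transcripts with BLAST 2.17.0 at 95% identity over 20% of the longest transcript. HK2, TPI1, GAPDH, PGK1 and LDHA each have 1 such pseudogene, and PGAM1 has 3 and the gene PGAM4, so reads could be split. Exons of HK2, TPI1, GAPDH and ENO1 overlap a gene on the opposite strand, those of GPI and PGK1 a gene on the same strand, and use of strand in the counting is not given in the sources used here.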

Additional observations from a re-analysis of the deposited data

How the results depend on the processing

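Of the 9 enzymes, LDHA and PKM passed and HK2 did not pass under all 15 alternatives (scaling, pseudocount, filter, variance model, replicate block and each library left out). No enzyme changed direction, which only rescaling could have turned. The cause of the changes below was not tested. The fit of the report called 1304 genes higher and 917 lower, and median scaling, which shifted the all-gene median from 0.03 to −0.03 (log2), gave 966 and 1200. With no filter on low values 533 genes were higher and 295 lower, 2 of the enzymes were lower, and 8 genes of the surrounding lists were higher and 5 lower, against 17 and 12. Without a variance trend 526 genes and 4 enzymes were lower, and 4 enzymes with quantile normalization. With the replicate block 2316 genes were higher and 1891 lower, 8 enzymes were lower, and 26 list genes were higher and 24 lower; with the block and median scaling 2310 genes and 28 list genes were lower. Apart from the calls given above, the block changed no other call of an enzyme. Leaving out 1 library at a time gave 575 to 1107 genes higher and 192 to 718 lower, 2 to 5 enzymes lower, and 11 to 15 list genes higher and 5 to 11 lower. The ENO1 share differed by 1.33 percentage points between groups, with a range from −0.377 (without JG342 replicate 2) to 3.04, so it had no stable direction. Direction held for 37 of 41 other named genes. HIF1A was −0.020 under median scaling, alone or with the block, −0.010 under quantile normalization and −0.034 to 0.13 with a library left out. SLC16A3 was −0.052 under median scaling, alone or with the block, −0.049 under quantile normalization, −0.00121 with TPM recomputed without the 10 highest genes, and −0.080 to 0.11 with a library left out. TXNIP ranged from −0.88 to 0.39 and PKLR from −0.57 to 0.024 with a library left out. GCGTG lay before the start site itself at 6 rather than 7 of the genes. With 2 libraries per group, the number of libraries limits the precision.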

Other observations

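GAPDH is a common reference transcript for relative quantification, so 12 other reference genes were looked up after its fall had been seen. In the same limma fit 2 of them passed as lower, none as higher, and 10 did not pass, beside lower calls for 7.62% of all genes and 18.4% of those averaging 100 TPM or more. HPRT1 fell from 139 and 152 to 100.01 and 105.6 TPM (log2 fold change −0.50 ± 0.10 SE, limma adjusted p 0.0103; 0.0927 without DMSO replicate 2). TFRC, the transferrin receptor gene, fell from 90.9 and 95.3 to 53.4 and 54.8 TPM (−0.77 ± 0.10, limma adjusted p 0.00173). TBP had overlapping groups at 14.3 and 15.3 against 14.6 and 15.5 TPM (limma adjusted p 0.940), as did ACTB, which ranged from 3053 to 4472 TPM over the libraries.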
